A study of Oreochromis niloticus with 14 samples.

Results

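The genes described here are jun (ENSONIG00000020823) and gadd45b (ENSONIG00000007306), stress response genes of the Nile tilapia, Oreochromis niloticus, followed in liver and testis after exposure to benzo[a]pyrene (BaP). They are 2 of the 17455 genes listed in the deposited liver or testis table, and both were found in each table. They were chosen by their gene IDs, and they were selected on their liver values, which were known from earlier work on these libraries. Their liver contrast is therefore a description with no test, and a test is given for the testis.

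RNA was sequenced from 4 livers of BaP fish and 4 livers of control fish, and from 3 testes of BaP fish and 3 testes of control fish, 14 libraries in all. The fish were adult males about a year old. BaP fish were injected 5 times into the body cavity, every 6 days, with 3 mg BaP per kg, control fish received the same injections of the carrier (dimethyl sulfoxide in corn oil), and both were sampled on day 26. The injections were thus shared by all groups, and no strain or genotype is given. Each group was kept in 2 aquariums of 12 fish, and each aquarium held fish of 1 group. An effect of the aquarium and an effect of BaP therefore cannot be told apart. The labels do not say which fish shared an aquarium, and the SE and p-values below treat the libraries of a group as independent. Levels are given as normalized CPM, the reads of a gene as a share of all reads on genes, after a scaling factor for the library. The libraries held 12485109 to 42836246 reads on genes, and the floor used here, the level of 3 reads, was 0.0646 to 0.27 CPM.

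The protein c-Jun, the product of jun, is a leucine zipper transcription factor. With Fos, Jun and ATF partners it forms AP-1, a dimer that binds DNA near genes of proliferation, apoptosis and the response to damage. It is an immediate early gene, transcribed within minutes of growth factor or stress signals, and its protein is activated by the kinase JNK. Gadd45b belongs to a family of small proteins without enzymatic activity that are induced by DNA damage and other stresses. In mammals it binds the kinase MAP3K4 upstream of p38 and JNK, and in mouse liver it is known as a gene of regeneration and of the nuclear receptor CAR. BaP is a polycyclic aromatic hydrocarbon that binds the aryl hydrocarbon receptor and is turned by CYP1 enzymes into metabolites that react with DNA.

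In liver the 2 genes stood on opposite sides of the control fish. The transcript level of jun was 3.52, 4.36, 4.85 and 4.19 CPM in BaP livers (replicates 1 to 4), against 10.6, 16.6, 14.8 and 14.4 CPM in control livers. The highest BaP liver was below the lowest control liver, and the groups did not overlap. Jun averaged 4.23 ± 0.55 CPM in BaP livers and 14.1 ± 2.54 CPM in control livers (SD, n = 4 each), a mean 3.33-fold lower with BaP. On the scale of log2(CPM + 1), which understates changes of low genes, the difference of BaP minus control was -1.52 (SE 0.214).

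The level of gadd45b was 772, 348, 570 and 1466 CPM in BaP livers, against 182, 286, 355 and 439 CPM in control livers. These groups overlapped: BaP liver replicate 2 lay below 2 of the 4 control livers, and the other 3 BaP livers lay above all of them. Gadd45b averaged 789 ± 483 CPM in BaP livers and 316 ± 109 CPM in control livers (SD, n = 4 each), a mean 2.50-fold higher with BaP. The log2 difference was 1.19 (SE 0.433), and it moved with single libraries. Without BaP liver replicate 4 the log2 difference was 0.83, and without BaP liver replicate 2, the lowest of the BaP group, it was 1.52.

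**Figure D1:**
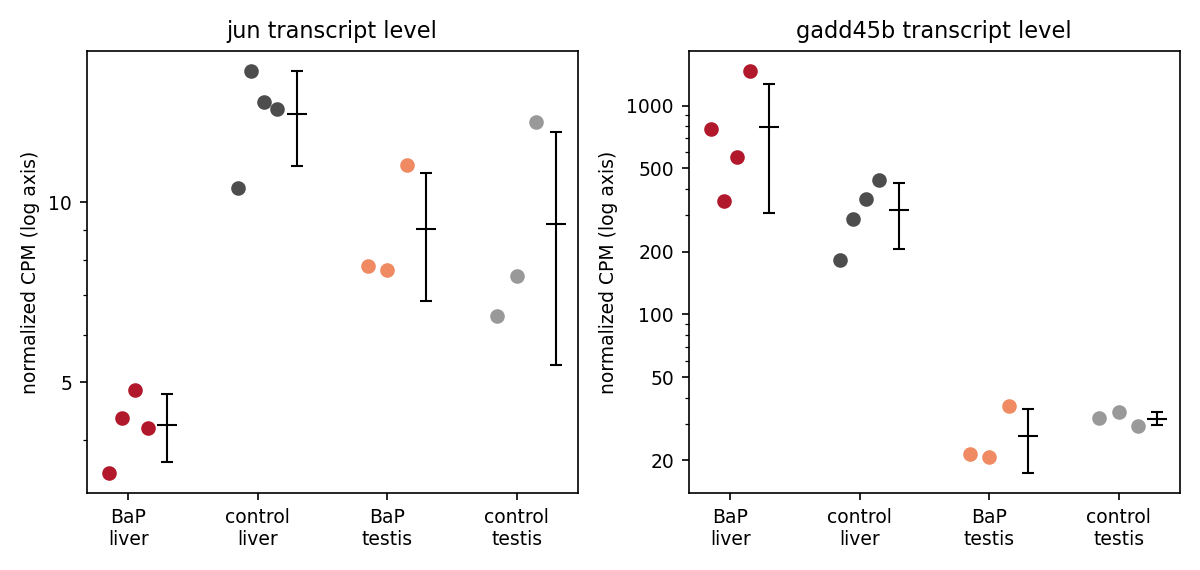
Normalized CPM of jun (left) and gadd45b (right) on log axes, with 1 point for each library and the mean ± SD beside each group of BaP liver, control liver, BaP testis and control testis. All 4 BaP livers lie at or below 4.85 CPM for jun, under all 10 other libraries, while the livers lie above the testes for gadd45b in every library.

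Set against all genes, these values place the members as follows. Of the 12902 genes of the liver table, 136 (1.05%) had a log2 difference at or below that of jun, and 194 (1.5%) had one at or above that of gadd45b. The groups stood apart with the BaP livers lower in 474 genes (3.67%), which include 1 of the 2 members, jun. They stood apart with the BaP livers higher in 523 genes (4.05%), which include neither member. In liver 9 genes (0.0698%) had a limma adjusted p under 0.05, and no such call is given for the members. Because the liver contrast chose the members, nothing is read from these shares.

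The 2 genes also differed in how much the fish of 1 group varied. The pooled within-group SD of the log2 level of jun in liver was 0.21. Only 7.39% of the 4517 genes with a mean within a factor of 2 of that of jun had a smaller SD, and their median SD was 0.41. Jun was selected on these liver values, which can favour a small SD, so its place is only described. Jun rested on 51 to 157 reads per BaP liver and 245 to 667 reads per control liver. The coefficient of variation of jun was 13% among BaP livers, where counting error alone reached 14.0% in the library with the fewest jun reads, and 18.1% among control livers. For gadd45b the within-group SD was 0.72, larger than in 81.9% of the 337 genes of like mean, which had a median SD of 0.36. Its coefficient of variation was 61.3% among BaP livers and 34.5% among control livers, while counting error for gadd45b was at most 1.54% in any liver.

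In testis neither gene differed detectably between BaP and control fish. Jun had 7.82, 7.70 and 11.5 CPM in BaP testes, against 6.46, 7.53 and 13.7 CPM in control testes. The groups overlapped fully, and replicate 3 was the highest library of each. The means were 9.02 ± 2.18 CPM in BaP testes and 9.22 ± 3.88 CPM in control testes (SD, n = 3 each). The log2 difference was 0.01 (SE 0.311), with a 95% interval of -0.72 to 0.75 (limma, unadjusted p = 0.964, adjusted p = 1.00). The interval reaches neither the -1.52 described for liver nor a rise of that size. That liver value chose jun and may overstate its difference, so no test between the tissues is drawn from it.

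Gadd45b had 21.4, 20.9 and 36.4 CPM in BaP testes, against 31.9, 33.9 and 29.3 CPM in control testes. BaP testis replicates 1 and 2 were below all 3 control testes, and BaP testis replicate 3 was above all of them. The means were 26.2 ± 8.83 CPM in BaP testes and 31.7 ± 2.31 CPM in control testes (SD, n = 3 each). The log2 difference was -0.31 (SE 0.260), with a 95% interval of -0.93 to 0.31 (limma, unadjusted p = 0.272, adjusted p = 1.00). The difference of gadd45b was -0.56 without BaP testis replicate 3 (limma, unadjusted p = 0.0402, adjusted p = 0.963), -0.19 without BaP testis replicate 1 and -0.17 without BaP testis replicate 2, and over all 15 alternatives the adjusted p lay between 0.852 and 1.0.

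Few genes passed any threshold in testis, which sets the background for these results. Of the 16930 genes of the testis table, 1 (0.00591%) had an adjusted p under 0.05. At an unadjusted p under 0.05 with a fold over 1.5, the study's threshold, 200 genes (1.18%) were higher with BaP and 169 (0.998%) were lower. The share with groups that did not overlap was 3.24% with all BaP testes higher and 2.84% with all BaP testes lower. Neither jun nor gadd45b was among any of these genes.

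The difference between the tissues, liver minus testis, was -1.53 (SE 0.359) for the log2 difference of jun and 1.5 (SE 0.581) for that of gadd45b. These are descriptions, since they contain the liver values that chose the genes, and their SE treats all 14 libraries as separate fish, while 6 title numbers occur in both tissues.

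The order of the group means differed between the 2 genes. For jun the order ran from control liver through control testis and BaP testis to BaP liver. Control liver stood 1.53-fold above control testis and BaP testis 1.02-fold below control testis, and in both pairs the libraries overlapped. BaP testis stood 2.13-fold above BaP liver, with no overlap. For gadd45b the order ran from BaP liver through control liver and control testis to BaP testis. Its step of 9.95-fold between control liver and control testis was the single step with no overlap, since BaP liver and control liver (2.50-fold) and BaP testis and control testis (1.21-fold) each shared part of their range. The liver and testis tables were normalized separately, so that steps between tissues depend on that scaling.

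Ratios of the 2 genes within a library do not depend on its scaling. Gene lengths were not used here, so that only shifts of a ratio between libraries can be read, not the abundance of one transcript against the other. The ratio of gadd45b to jun was 219, 79.9, 117 and 350 in BaP livers, against 17.2, 17.2, 24.1 and 30.6 in control livers. Every BaP liver lay above every control liver, including BaP liver replicate 2, whose gadd45b level alone was inside the control range. Both genes were selected on these liver values, with differences of opposite sign. The separation of the ratio is therefore built on that choice and adds no support. In testis the ratio was 2.74, 2.71 and 3.16 in BaP fish, against 4.94, 4.51 and 2.15 in control fish, and these groups overlapped. The correlation of the deviations of the 2 genes from their group means was 0.18 over the 8 livers and 0.33 over the 6 testes. With so few libraries these values do not settle whether the 2 genes follow each other from fish to fish.

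**Figure D2:**
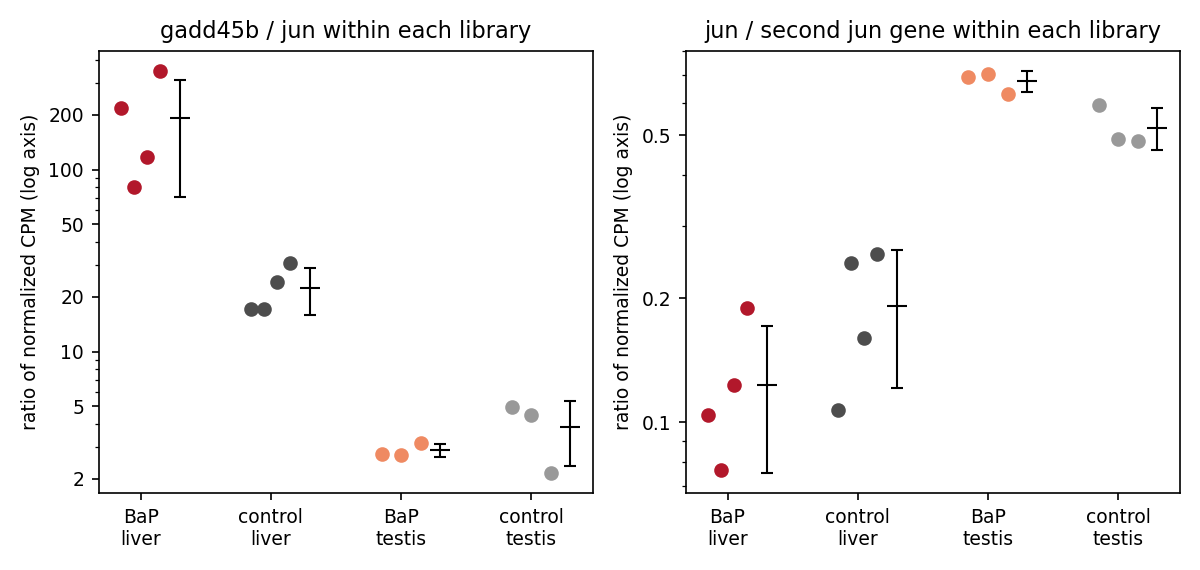
Ratio of gadd45b to jun (left) and of jun to the second jun gene (right) within each library, on log axes, with 1 point for each library and the mean ± SD beside each group. The gadd45b to jun ratio is at least 79.9 in BaP livers and at most 30.6 in control livers, and the ratio of the jun genes is higher in all 6 testes than in all 8 livers.

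A second gene carries the name jun (ENSONIG00000021256), as fish often keep duplicated copies. How reads that match both copies were counted is not given in the sources used here, so the division of reads between them is uncertain. The second jun gene had 33.8, 57.2, 39.5 and 22.1 CPM in BaP livers, against 98.6, 68.0, 92.2 and 55.9 CPM in control livers. Its groups overlapped by 1 pair of libraries, and its log2 difference was -1.07 (SE 0.314, limma, unadjusted p = 0.0067, adjusted p = 0.228). The second jun gene was named from the study's list of genes altered in these same libraries, so these p-values are not an independent test. The ratio of jun to the second jun gene was 0.104, 0.0762, 0.123 and 0.189 in BaP livers and 0.107, 0.244, 0.160 and 0.257 in control livers, with overlap. In testis this ratio was 0.694, 0.706 and 0.631 in BaP fish and 0.591, 0.490 and 0.484 in control fish. All 3 BaP testes lay above all 3 control testes, but an exact permutation test of 3 against 3 cannot go below a two-sided p of 0.1. The correlation of deviations between the jun genes was 0.99 over the 6 testes and -0.17 over the 8 livers. With 6 libraries such a value does not settle whether the copies follow each other from fish to fish. The transketolase gene tktb and the KIT receptor gene kita also had 0.99 with jun in testis. They were picked as the named genes most like jun there, so their values do not show how common 0.99 is.

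The other subunits of AP-1 with a name in these tables were jund, fosb and atf3. All names come from the supplementary list of 1526 genes that the study chose as altered in these same libraries, so counts over named genes are not independent evidence of a direction. In liver 765 genes (5.93%) were higher and 783 (6.07%) lower at the study's threshold. With the second jun gene, 4 AP-1 genes other than jun were named, 2 were lower with BaP at that threshold (the second jun gene and jund), none was higher, and their median log2 difference was -1.01, beside 0.02 over all genes. None had an adjusted p under 0.05. Scaling by library size alone moved the median over all genes to -0.16, and jun to -1.69, while the second jun gene (-1.27), jund (-1.13), fosb (-1.20) and atf3 (-1.12) stayed below 0.

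JunD, which in mammals restrains proliferation where c-Jun promotes it, had 2.55, 4.97, 6.38 and 5.23 CPM in BaP livers, against 7.32, 9.17, 5.65 and 23.8 CPM in control livers (log2 difference -0.96, SE 0.407, limma adjusted p = 0.345). Atf3, a stress-induced partner of c-Jun, had 67.4, 33.3, 39.2 and 21.9 CPM in BaP livers and 39.1, 57.6, 199 and 57.1 CPM in control livers (log2 difference -0.92, SE 0.498, limma adjusted p = 0.446). FosB, which forms AP-1 with Jun partners, had 1.45, 0.139, 0.180 and 0.277 CPM in BaP livers and 0, 0.899, 0.680 and 27.7 CPM in control livers (log2 difference -1.11, SE 0.882, limma adjusted p = 0.604). Of the named AP-1 genes jun had the smallest SE, but it was selected on these liver values, which can favour a small SE. FosB was at 0 in control liver replicate 1, which allows up to 0.129 CPM, and 1 control library holds most of its reads.

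In testis the median of the 4 AP-1 genes was -0.20, beside -0.02 over all genes, and none passed the study's threshold. FosB had 7.56, 6.97 and 6.80 CPM in BaP testes, all above the 6.20, 5.73 and 3.33 CPM of control testes (log2 difference 0.45, SE 0.245, limma adjusted p = 1.00). Atf3 had 2.94, 2.97 and 4.54 CPM in BaP testes and 3.36, 10.6 and 14.2 CPM in control testes (log2 difference -1.05, SE 0.466, limma adjusted p = 1.00).

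The other named genes on the list of gadd45b lay on the opposite side in liver. They share its naming as DNA-damage-inducible transcripts and not its protein family: ddit3 encodes CHOP, a factor of the unfolded protein response, and ddit4 and DDIT4L encode inhibitors of the growth kinase mTORC1. All 3 were lower with BaP at the study's threshold, with a median of -1.36 and no adjusted p under 0.05. Over all liver genes 6.07% were lower at that threshold. Of the 7 symbols on the list 4 had a name, all from the study's list of altered genes. Ddit4 had 243, 132, 85.6 and 30.3 CPM in BaP livers, all below the 290, 930, 667 and 740 CPM of control livers (log2 difference -2.64, SE 0.586, limma adjusted p = 0.169). Ddit3 had 26.8, 143, 67.2 and 60.2 CPM in BaP livers and 291, 121, 171 and 118 CPM in control livers (log2 difference -1.36, SE 0.477, limma adjusted p = 0.279). Among the named genes of its list only gadd45b had a positive liver difference, also under library-size scaling (0.99). Gadd45b was selected on its liver values and the others were named as altered, so this contrast is only described. DDIT4L lay between 0.0899 and 0.250 CPM in BaP livers, near the level of 3 reads, and between 0.262 and 4.06 CPM in control livers (log2 difference -1.05, SE 0.371, limma adjusted p = 0.281). In testis the 3 genes had a median of -0.21 and none passed the study's threshold.

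**Figure D3:**
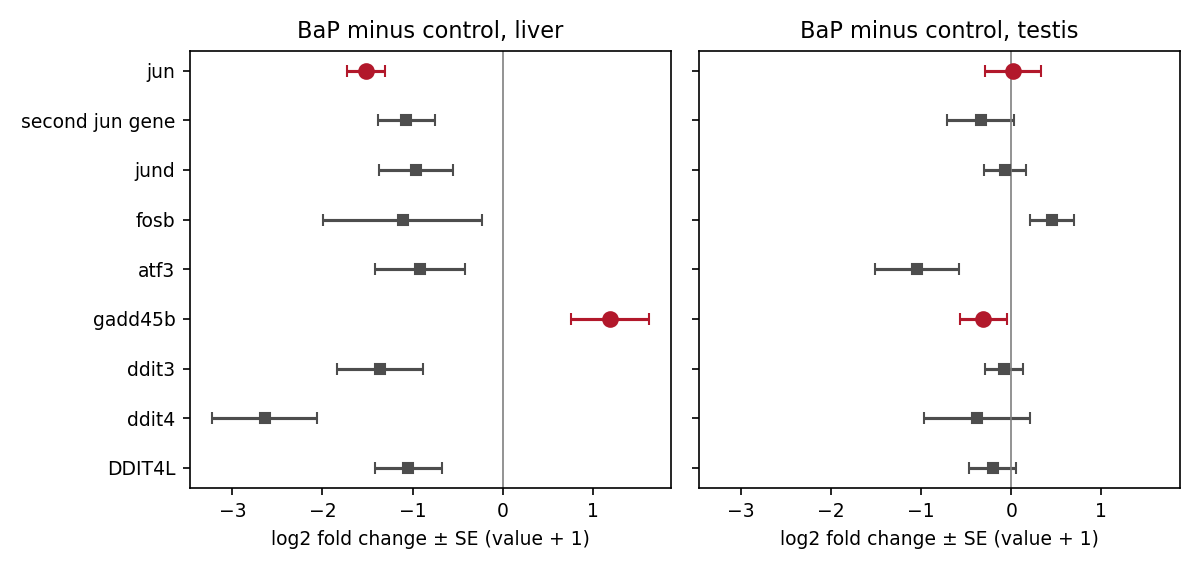
Log2 difference of BaP minus control on the scale of log2(CPM + 1) with its SE, in liver (left) and testis (right), for jun and gadd45b (red) and for the named AP-1 and DNA-damage-inducible genes (grey). In liver gadd45b at 1.19 is the only plotted gene with a positive difference, while jun lies at -1.52 and ddit4 at -2.64. The members were selected on their liver values and the others named as altered, so this contrast is only described. In testis both members lie within 0.31 of 0.

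The kinase cascade between the 2 genes was represented by 6 named genes, with a median log2 difference of -0.02 in liver. At the study's threshold 3 were higher and 3 lower in BaP livers, beside 5.93% and 6.07% of all liver genes. These genes and the phosphatases below were named from the study's list of altered genes, so such counts do not test a direction. MAPKAPK3, a kinase activated by p38, had a log2 difference of 1.60 (SE 0.708), and mapk12a, a p38 kinase, had 1.37 (SE 0.384). Mapkapk5 had -1.08 (SE 0.301), and jkamp, a membrane protein associated with JNK, had -0.89 (SE 0.355). Map3k4, the kinase bound by mammalian Gadd45b, was named after its values were seen. It lay between 17.4 and 34.8 CPM in BaP livers and between 11.16 and 14.55 CPM in control livers, groups that did not overlap (log2 difference 0.76, SE 0.259, limma adjusted p = 0.268). The MAP kinase phosphatases, which switch JNK and p38 off, had a median of -1.30 over 3 named genes, with dusp1 at -1.37 (SE 0.576) and dusp8a at -1.30 (SE 0.430) past the study's threshold and dusp16 at -0.71 (SE 0.361) not past it. None of these 9 genes passed the study's threshold in testis or an adjusted p under 0.05 in either tissue.

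Other immediate early genes also took their names from the study's list of altered genes, so their counts describe and do not test a direction. Of 13 named genes, 6 were lower and 2 higher in BaP livers at the study's threshold, with a median of -0.92. Over all liver genes 6.07% were lower and 5.93% higher at that threshold. MCL1 (ENSONIG00000006658), a survival factor of the Bcl-2 family, averaged 137 ± 24.2 CPM in BaP livers and 383 ± 112 CPM in control livers (SD, n = 4 each), with no overlap and a log2 difference of -1.45 (SE 0.270). NR4A1, an orphan nuclear receptor, had a log2 difference of -1.29 (SE 0.744) and did not pass the threshold. The higher genes were pim1, a survival kinase, at 1.46 (SE 0.453) and SOCS3, an inhibitor of cytokine signalling, at 1.23 (SE 0.450). In testis none of the 13 passed, and their median was 0.10.

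A list of genes linked to p53, the main transcription factor of the DNA damage response, held 5 named genes. Whether p53 controls each of them in these tissues was not tested. In BaP livers 3 were higher and 2 lower at the study's threshold, with a median of 0.67. Over all liver genes 5.93% were higher and 6.07% lower at that threshold. The genes here were also named from the study's list of altered genes, so their counts do not test a direction. Ccng1, the gene of cyclin G1, averaged 533 ± 83.5 CPM in BaP livers and 247 ± 102.5 CPM in control livers (SD, n = 4 each), with no overlap and a log2 difference of 1.18 (SE 0.301), and perp, a gene of cell adhesion and apoptosis, had 0.73 (SE 0.233). The cyclin G2 gene ccng2 had -1.21 (SE 0.415), and the gene paired with the symbol SESN3, a sestrin, had -1.46 (SE 0.343). None of the 5 passed the study's threshold in testis. Among 3 genes of ATF4, CHOP and the unfolded protein response, nupr1, a small stress-induced chromatin protein, lay between 224 and 541 CPM in BaP livers and between 665 and 2014 CPM in control livers (log2 difference -1.59, SE 0.397). Nupr1 was also lower in testis at that threshold, with a log2 difference of -1.18 (SE 0.416). Cebpg, a leucine zipper partner of ATF4, had -0.88 (SE 0.322) in liver, and HSPA5, the chaperone BiP, had 0.97 (SE 0.608) and did not pass the threshold.

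Targets of the aryl hydrocarbon receptor, again named from the study's list of altered genes, were read in the same libraries. Cyp1b1, an enzyme that activates BaP, averaged 30.6 ± 0.253 CPM in BaP testes and 2.32 ± 0.752 CPM in control testes (SD, n = 3 each), with a log2 difference of 3.28 (SE 0.224), and it was the 1 gene of the testis table with a limma adjusted p under 0.05 (0.0315). In liver it had 2.04 (SE 0.643), with libraries from 0.0690 to 13.4 CPM in BaP fish and from 0 to 0.523 CPM in control fish. Cyp1a, the classical receptor target, had a log2 difference of 1.76 (SE 0.550) in testis, past the study's threshold, and 0.92 (SE 0.516) in liver, not past it. The 2 genes named GSTA1, a glutathione transferase, were lower at that threshold in testis, at -0.87 (SE 0.266) and -1.06 (SE 0.322), and had -0.33 (SE 0.458) and -1.58 (SE 0.821) in liver without passing it. Jun and gadd45b showed no detectable difference in the testes in which these genes passed.

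Over all 8 lists, 41 genes other than jun and gadd45b were named, all from the study's list of genes altered in these same libraries. Their counts therefore describe and do not test a response. At the study's threshold 5.93% of all liver genes were higher and 6.07% lower, and 1.18% and 0.998% of all testis genes. In liver 9 of the 41 were higher and 20 lower at that threshold, with a median of -0.92 and no adjusted p under 0.05. With scaling by library size alone these counts were 5 and 24, and over all liver genes the higher share of the calls was 20.7%, against 49.4% with the deposited scaling. In testis 2 were higher and 3 lower, with a median of -0.07 and 1 adjusted p under 0.05, and library-size scaling left these counts as they were while moving the higher share over all testis genes to 65.0%, against 54.2%.

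**Figure D4:**
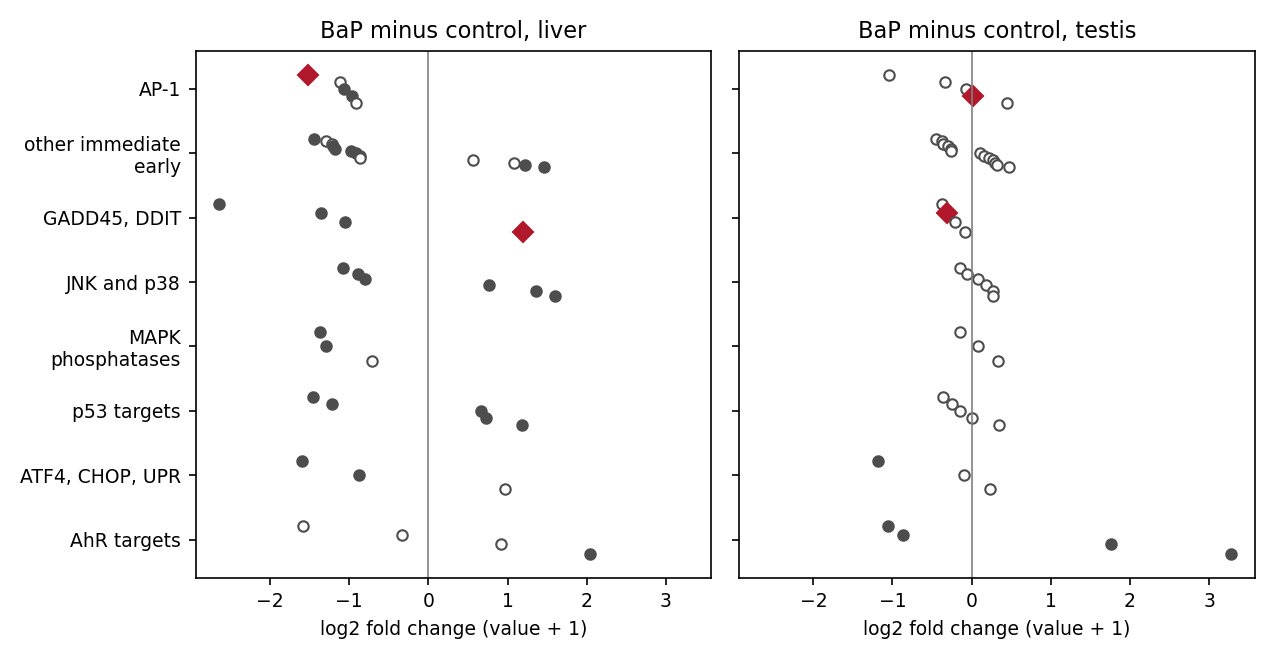
Log2 difference of BaP minus control in liver (left) and testis (right) for the named genes of 8 stress lists. Red diamonds are jun and gadd45b. Filled circles are genes past an unadjusted p under 0.05 and a fold over 1.5, and open circles are the rest. In liver 29 of the 41 other genes are filled, and in testis 5. All were named from the study's list of altered genes, so these counts do not test a response.

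The named genes most like each member across libraries were ranked by the correlation (Pearson r) of their log2 levels, a description over 8 or 6 libraries that share their groups and their scaling. For jun in liver they were znf395a, a zinc finger factor (0.99), NCOA7, a nuclear receptor coactivator (0.97), TMCC1 (0.95), eif4ebp3l, an inhibitor of translation initiation (0.94), and bhlhe40, a repressor of clock genes (0.94), and 6 of 12525 genes reached the fifth value. Much of that likeness lay between the groups, since the correlation of deviations from the group means was 0.75, 0.55, 0.21, 0.47 and 0.35 for these genes in the same order. For gadd45b in liver they were dtd2, an enzyme that proofreads transfer RNA (0.96), fgfr1b, a fibroblast growth factor receptor (0.95), ppp1r9bb (0.93), BTBD6 (0.93) and nr0b2 (0.92), which encodes SHP, a receptor that represses bile acid synthesis, and 13 genes reached the fifth value. Their correlations of deviations from the group means lay between 0.849 for nr0b2 and 0.937 for dtd2. The ranking used the same 8 livers, so these values are not separate evidence of a shared pattern.

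Among livers the second jun gene varied in the opposite direction to gadd45b. It was picked after its values were seen. Its correlation with gadd45b was -0.95 over 8 livers, the correlation of deviations was -0.91, and that of deviations without the 2 livers farthest from the median was -0.72. On that last measure fosb had 0.78, larger in size, beside 0.45 over all 8 livers. Jun itself had -0.64 with gadd45b over the 8 livers, but its correlation of deviations was 0.18. The -0.64 contains the group differences on which both genes were selected.

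In testis the named genes most like jun were tktb, a transketolase (0.99), kita, a KIT receptor (0.98), foxred2 (0.98), txndc5, a disulfide isomerase of the endoplasmic reticulum (0.97), and slc9a7, a sodium and proton exchanger (0.97). Those most like gadd45b were arhgef19 (0.96), lpar3, a receptor of lysophosphatidic acid (0.96), xpnpep2 (0.94), ak5, an adenylate kinase (0.93), and anxa6, an annexin (0.93). Of 16405 genes, 34 and 85 reached the fifth value for jun and gadd45b. The ranking used the same 6 testes, so these values are not separate evidence of a shared pattern. None of these 10 genes was among those named for liver.

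The tissue labels were checked against markers of the cell types each sample could hold. Marker names also come from the study's list of altered genes, so counts of markers past its threshold are not independent evidence. At that threshold 5.93% of all liver genes were higher and 6.07% lower, and 1.18% and 0.998% of all testis genes. The summed level of 15 hepatocyte genes was 129000 to 192000 CPM in BaP livers and 95700 to 140000 CPM in control livers, with 8 genes higher and none lower at the study's threshold. Over 14 of these genes it was 66.9 to 724 CPM in BaP testes and 44.0 to 60.9 CPM in control testes, with 2 genes higher. Exocrine pancreas genes (5) summed to 22800 to 26100 CPM in BaP livers and 9010 to 26200 CPM in control livers, with 1 gene higher, and in testis to 6.94 to 186 CPM in BaP fish and 3.54 to 6.42 CPM in control fish, with 3 genes higher. Erythrocyte genes (5) summed to 149 to 809 CPM in BaP livers and 176 to 3210 CPM in control livers, with 3 genes lower at the threshold, and in testis to 42.4 to 85.8 CPM in BaP fish and 56.8 to 657 CPM in control fish, with 1 gene lower. Of the germ and Sertoli cell markers sox9a alone had a name, at 13.2 to 25.4 CPM in BaP testes and 7.71 to 23.3 CPM in control testes, and no leukocyte marker had one, so the testis label and the leukocyte content were not tested. No marker gene was at 0 in any library. The part of these shifts in the levels of jun and gadd45b was not tested, and in whole tissue fewer cells of a type and less RNA per cell cannot be told apart.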

How the data were processed

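RNA-Seq libraries of poly(A) RNA were sequenced on a NextSeq500, and the reads were aligned with TopHat and tested with edgeR by the authors. The genome build, annotation and counting program are not given in the sources used here. The deposited values are a normalized signal, CPM on an effective library size (reads on genes times edgeR's TMM factor), in 1 table per tissue already filtered on low counts. All values (100%) were whole multiples of 1 step per library within 0.05 of a read, which gave back the reads.

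Samples were grouped by tissue and treatment. Each tissue was fitted in 1 limma (3.58.1) model of log2(value + 1) over all genes, with Benjamini-Hochberg adjustment. This replaced a count test because the tables hold normalized values. Genes, lists and tests were chosen with earlier results of these data known. Named genes are the 2 members, all named genes of the AP-1 and DNA-damage-inducible lists, up to 4 with the largest liver change from each other list, and the 5 most alike per member and tissue with a mean of at least 1. The 8 stress lists hold 132 symbols. The fits were tested on simulated data. Alternatives were edgeR's (4.0.16) exact and quasi-likelihood tests and DESeq2 (1.42.0) on the recovered reads, 2 other scalings, a pseudocount of 0.1, a filter (at least 1 in 3 or more libraries), a trended robust prior, a replicate block and leaving out each library. Floors cover counting error only. Within a tissue each library has its own title number, and p-values measure the spread between these libraries. No gene sequence was used here.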

Additional observations from a re-analysis of the deposited data

Results flagged for a closer look

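In 62 groups of 4 livers, 5 had a library far from the other 3 by Dixon's criterion, and chance alone marks about 1 in 20 such groups. None was of jun or gadd45b. FosB was 1.45 CPM in BaP liver replicate 1, against 0.139 to 0.277 CPM in the other BaP livers, and 27.7 CPM in control liver replicate 4, against 0 to 0.899 CPM in the other control livers. NR4A1 was 32.98 CPM in the same control liver replicate 4, against 1.21 to 5.55 CPM in the others. Atf3 was 199 CPM in control liver replicate 3, against 39.1 to 57.6 CPM in the others. Pim1 was 400.3 CPM in BaP liver replicate 1, against 95.1 to 144 CPM in the other BaP livers. For 29 of the 41 list genes other than jun and gadd45b, the liver and testis differences were compared. They were all named genes of the AP-1 and DNA-damage-inducible lists and up to 4 per other list with the largest liver change. That choice favours a difference between the tissues, so the comparison is not a neutral test. In 1 limma model that takes the 14 libraries as independent, the lowest adjusted p was 0.57. Liver and testis titles have 6 numbers in common, which may mark single fish, and a fit with that pairing was not run.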

How the results depend on the processing

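The liver directions of jun and gadd45b held under every alternative run. Jun in liver was -1.73 with edgeR's exact and quasi-likelihood tests and -1.75 with DESeq2, against -1.52, and -1.70 with a pseudocount of 0.1. In testis, where jun did not differ detectably, its value of 0.01 turned to -0.031 with the exact test, -0.031 with the quasi-likelihood test and -0.027 with DESeq2, to -0.16 without BaP testis replicate 3, and to -0.18 and -0.08 without control testis replicates 1 and 2. Leaving out each library gave -1.64 to -1.44 for jun and 0.83 to 1.52 for gadd45b in liver, -0.18 to 0.31 and -0.56 to -0.17 in testis, and -1.82 to -1.34 and 1.14 to 1.83 for liver minus testis. The list genes past the study's threshold numbered 22 to 29 in liver (29 with all libraries) and 4 to 6 in testis (5). The genes with an adjusted p under 0.05 numbered 9 with limma, 224 with edgeR's exact test, 5 with its quasi-likelihood test and 443 with DESeq2 in liver, and 1, 29, 0 and 54 in testis. Of the 41 list genes these were 0, 8, 0 and 16 in liver (29, 36, 34 and 35 at an unadjusted p under 0.05) and 1, 1, 0 and 1 in testis (5, 6, 6 and 6). The cause was not tested.

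The replicate numbers did not pair the fish: same-numbered libraries had correlations of deviations of -0.02 to 0.20 in liver and -0.08 to 0.37 in testis. With a replicate block the values were -1.52 (SE 0.22) for jun and 1.19 (SE 0.347) for gadd45b in liver, and 0.01 (SE 0.184) and -0.31 (SE 0.259) in testis, both with a limma adjusted p of 0.999. The list counts were 30 and 6.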

Other observations

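The titles of liver and testis libraries have 6 numbers in common, and the labels do not say that a number marks 1 fish. For numbers 11, 14 and 15 gadd45b was 1466, 570 and 348 CPM in BaP livers and 21.4, 20.9 and 36.4 CPM in BaP testes, so that the number with the lowest liver level had the highest testis level. For numbers 18, 19 and 20 it was 355, 286 and 182 CPM in control livers and 31.9, 33.9 and 29.3 CPM in control testes. Jun was 4.19, 4.85 and 4.36 CPM in BaP livers and 7.82, 7.70 and 11.5 CPM in BaP testes for numbers 11, 14 and 15. For numbers 18, 19 and 20 it was 14.8, 16.6 and 10.6 CPM in control livers and 6.46, 7.53 and 13.7 CPM in control testes. The control number with the lowest jun level in liver thus had the highest in testis. The other sets did not show this order. For gadd45b in control fish, number 20 was lowest in both tissues. For jun in BaP fish, number 11 was lowest in liver and in the middle in testis. These values are given with no test.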
